A study of Mus musculus with 1617 samples.

Results

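Macrophages of the embryonic thalamus, the relay that passes sensory input on to the cortex, were compared with macrophages of the visual cortex, one of the areas it feeds, in mice at E18.5, shortly before birth. The cells were chosen by their source names, by paired-end reads and by holding at least 1000 genes at 1 TPM or more. This left 34 of 50 thalamic and 16 of 22 visual cortex cells, together 50 of the 1617 cells of the series. Each cell had been sorted as positive for CD45, F4/80 and CD11b and negative for Ly6C, loaded on a Fluidigm C1 chip and given its own Nextera XT library. No genotype, strain, sex, treatment or number of embryos is given in the sources used here for either group. Since no embryo is named, each region counted as 1 sample, no difference was tested, and all differences below are descriptions of these cells.

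Microglia, the macrophages of the brain parenchyma, descend from yolk sac progenitors that enter the brain early in development and then divide there. Over embryonic and postnatal life they take on a homeostatic programme, which depends on TGF-beta and on the transcription factor Sall1 and includes purinergic and fractalkine receptors, Fc receptor-like molecules and other surface proteins. Around birth some microglia gather along growing axon tracts in an activated, lipid-handling state marked by Spp1 and Lpl. Border-associated macrophages of the meninges, perivascular spaces and choroid plexus pass the same surface sort.

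Promoters of 3 genes are shown because these had the highest thalamic means among the homeostatic genes that stood higher in thalamus: Fcrls, an Fc receptor-like protein of microglia, Sparc, a secreted matrix-binding protein, and P2ry12, an ADP receptor of microglial processes. Each runs from 250 bases before to 50 bases after the RefSeq gene start in GRCm38.p6, written in the direction of the gene, with AGGAAG or its reverse complement CTTCCT, a core of sites bound by the macrophage factor PU.1 and other ETS proteins, in capitals.
Fcrls, chr3:87263475-87263774, minus strand: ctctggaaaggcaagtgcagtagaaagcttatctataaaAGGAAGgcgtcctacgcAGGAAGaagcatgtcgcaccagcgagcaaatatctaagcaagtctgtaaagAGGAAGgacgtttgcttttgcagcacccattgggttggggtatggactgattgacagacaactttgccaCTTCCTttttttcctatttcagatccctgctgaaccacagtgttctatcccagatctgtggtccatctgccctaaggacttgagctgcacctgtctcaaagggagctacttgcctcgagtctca
Sparc, chr11:55420031-55420330, minus strand: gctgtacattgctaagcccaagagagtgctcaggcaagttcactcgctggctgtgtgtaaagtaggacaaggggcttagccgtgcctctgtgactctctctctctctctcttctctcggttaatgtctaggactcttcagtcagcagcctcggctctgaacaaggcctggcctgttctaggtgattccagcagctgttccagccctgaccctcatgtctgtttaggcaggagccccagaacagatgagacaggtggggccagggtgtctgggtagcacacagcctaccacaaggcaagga
P2ry12, chr3:59262936-59263235, minus strand: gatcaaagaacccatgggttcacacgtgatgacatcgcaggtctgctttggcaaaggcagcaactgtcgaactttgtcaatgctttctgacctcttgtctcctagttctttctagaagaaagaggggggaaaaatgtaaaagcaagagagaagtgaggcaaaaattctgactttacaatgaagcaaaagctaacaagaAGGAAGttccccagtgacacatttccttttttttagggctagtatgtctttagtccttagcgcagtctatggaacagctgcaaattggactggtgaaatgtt
The Fcrls window holds AGGAAG 3 times and CTTCCT 1 time, the P2ry12 window holds AGGAAG 1 time, and neither is in the Sparc window. Of 32851 RefSeq promoters of this length 11613 (35.4%) hold either.

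Values were TPM, transcripts scaled to a fixed sum per cell, which corrects each gene for its transcript length, so the read depth of a value is unknown. Each difference is the mean TPM of thalamus over that of visual cortex as a log2 ratio, with 1 TPM added to both means, which understates it where levels are low. Genes averaging 5 TPM in at least 1 region are called measured, and those 1.5-fold or more apart higher or lower. A second measure, the difference of mean log2(TPM + 1), gives each cell a more even weight. Ratios over so few cells are often set by 1 or a few cells. The number of cells with a gene at 1 TPM or more is given for part of the genes. A gene named without it may also rest on few cells.

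The cells of the regions differed in quality before any gene was compared. Thalamic cells held a median of 2833 genes (range 1004 to 3876) and visual cortex cells 3336 (1114 to 4304). Mitochondrially encoded transcripts took a median of 7.75% of TPM in thalamus (up to 57.2%) and 4.57% in visual cortex (up to 11.3%), and the 5 cells at 20% or more were all thalamic. Xist was at 1 TPM or more in 16 of 34 thalamic cells (29.8 to 64.9%) and 2 of 16 visual cortex cells (1.55 to 38.3%), and the Y-linked genes Ddx3y or Eif2s3y in 9 of 34 thalamic cells (12.9 to 44.4%) and 10 of 16 visual cortex cells (35.4 to 84.8%), where the exact 95% intervals allow for counting error and nothing else. No cell had both, and the regions differed in the proportions of these cells. In the titles the thalamic cells form a single run of consecutive numbers and the visual cortex cells another, and region cannot be told apart from preparation.

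**Figure D1:**
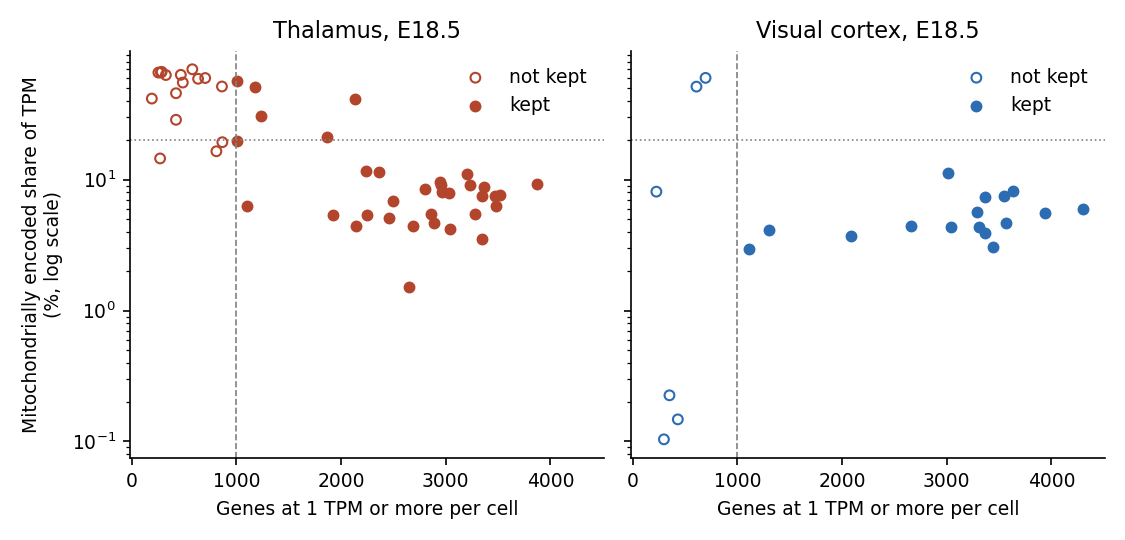
Each point is 1 cell at E18.5, with thalamus on the left and visual cortex on the right; the x axis gives genes at 1 TPM or more and the y axis the mitochondrially encoded share of TPM in percent on a log scale. Filled points are the 34 and 16 cells kept, open points cells under 1000 genes (dashed line), and the 5 kept cells at 20% or more (dotted line) are all thalamic.

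Macrophage genes were found in both regions, and some markers of other cell types were found in part of the cells. The sort genes Ptprc, which encodes CD45 (thalamus 313 TPM, visual cortex 175.9 TPM, log2 0.83), Itgam, which encodes CD11b (thalamus 85.6 TPM, visual cortex 33.1 TPM, log2 1.35), and Emr1, which encodes F4/80 (thalamus 410.1 TPM, visual cortex 437 TPM, log2 -0.09), were found in both regions, and Ly6c2 and the monocyte receptor gene Ccr2 were in none of the cells, which allows shares of up to 8.82% in thalamus and 18.8% in visual cortex. Of the 8 monocyte markers 3 were at 0 in thalamus and 5 in visual cortex, and the measured one, Vcan, was lower in thalamus. They summed to 100 TPM or more in 0 thalamic cells and 1 visual cortex cell. Summed homeostatic microglial genes ranged from 45.2 to 60681 TPM over thalamic cells (median 22926) and from 1956 to 26706 TPM over visual cortex cells (median 13352). All 5 mast cell markers were at 0 in both regions, and of the 8 neutrophil markers 8 were at 0 in thalamus and 7 in visual cortex. Of the 6 dendritic cell markers 2 were at 0 in thalamus and 3 in visual cortex. The measured dendritic cell markers, Zbtb46 and Siglecg, were higher in thalamus, where 1 cell reached a summed level of 1351 TPM. Of the 10 cortical neuron markers 7 were at 0 in thalamus and 9 in visual cortex, and of the 10 neuron markers shared across regions 7 in thalamus and 2 in visual cortex, with medians of the summed level of 0 TPM in thalamus and 1.01 TPM in visual cortex. The summed astrocyte markers had medians of 0.34 TPM in thalamus and 0.735 TPM in visual cortex, but means of 70.9 TPM and 5.93 TPM. They summed to 100 TPM or more in 4 thalamic and 0 visual cortex cells. The measured astrocyte markers, Slc1a3 and Slc1a2, were both higher in thalamus. The oligodendrocyte, erythroid and endothelial and mural markers had medians of 0 TPM in both regions. The endothelial and mural ones summed to 100 TPM or more in 0 thalamic cells and 1 visual cortex cell. Markers of T, B and natural killer cells had summed medians of 0 TPM in thalamus and 32.6 TPM in visual cortex, with Cd79b the measured one. They summed to 100 TPM or more in 7 thalamic and 6 visual cortex cells. Thalamic neuron markers had summed medians of 23.9 TPM in thalamus and 15.1 TPM in visual cortex, but means of 118.9 TPM and 398.2 TPM. They summed to 100 TPM or more in 9 thalamic and 4 visual cortex cells. The measured ones, Tcf7l2 and Foxp2, were both lower in thalamus. Neural progenitor markers summed to 100 TPM or more in 2 thalamic and 4 visual cortex cells. The part of RNA from other cell types in the results was not tested.

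Of 9127 measured genes 3477 (38.1%) were higher in thalamus and 3756 (41.2%) lower, with a median log2 ratio of -0.12. By the difference of mean log2 values 1018 (11.2%) were higher and 3283 (36%) lower, and the median was -0.33. The thalamic cells held fewer genes each, and the part of this in the measure was not tested. Each list below is read against a background of 38.1% higher and 41.2% lower on the ratio of means. For counts by mean log2 values the background is 11.2% higher and 36% lower. Among the 1095 genes with a mean of 50 TPM or more and at 1 TPM or more in at least 50% of the cells of both regions, 299 (27.3%) were higher and 305 (27.9%) lower.

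Genes of homeostatic microglia stood higher in thalamus. Of 14 measured, 9 were higher and 0 lower, with a median log2 ratio of 0.73, against -0.12 over all measured genes, and by mean log2 values 9 higher and 2 lower with a median of 0.72. Fcrls (chromosome 3, 87250758 to 87263738, minus strand, GRCm38) averaged 7453 TPM in thalamus and 2073 TPM in visual cortex (log2 1.85). It ranged from 0 to 35807 TPM over the thalamic cells, with a median of 5941 TPM, and from 0.96 to 4735 TPM over the visual cortex cells, with a median of 1729.8 TPM. The groups overlapped, but 21 of the 34 thalamic cells lay above the highest visual cortex cell.

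Sparc (chromosome 11, 55394500 to 55423183, minus strand) averaged 1778 TPM in thalamus and 392 TPM in visual cortex (log2 2.18). It was at 1 TPM or more in 29 thalamic and 14 visual cortex cells, and 12 thalamic cells exceeded every visual cortex cell. This ratio depended on the minimum of genes per cell. With the cells under 1000 genes included it was -3.40, as 1 visual cortex cell with 430 genes held 272681 TPM of Sparc. P2ry12 (chromosome 3, 59216272 to 59262871, minus strand) averaged 1699 TPM in thalamus and 626 TPM in visual cortex (log2 1.44). It ranged from 0 to 6107 TPM over the thalamic cells, with a median of 1050.1 TPM, and from 0 to 2861 TPM over the visual cortex cells, with a median of 496 TPM. It was seen in nearly all cells of both regions, 31 of 34 thalamic cells (76.3 to 98.1%) and 14 of 16 visual cortex cells (61.7 to 98.4%). P2ry12 and the neighbouring nucleotide receptor gene P2ry13 (thalamus 632 TPM, visual cortex 268.04 TPM, log2 1.24) lie within Med12l on the opposite strand, and without strand information reads of these genes cannot be told apart.

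Gpr34, a lysophosphatidylserine receptor on the X chromosome, averaged 1218 TPM in thalamus and 459 TPM in visual cortex (log2 1.41) and was found in 29 thalamic and 11 visual cortex cells. Cx3cr1, the receptor of the neuronal chemokine fractalkine, averaged 1446 TPM in thalamus and 896 TPM in visual cortex (log2 0.69), with cell medians of 1345 TPM in thalamus and 531 TPM in visual cortex. Sall1, a zinc finger factor that keeps microglia in their homeostatic state, lies on the minus strand of chromosome 8 (89027235 to 89044162) and averaged 113.3 TPM in thalamus and 33.7 TPM in visual cortex (log2 1.72). It was at 1 TPM or more in 17 of 34 thalamic cells (32.4 to 67.6%) and 8 of 16 visual cortex cells (24.7 to 75.3%), the same share of each region. At 100 TPM or more it was in 11 thalamic cells and 1 visual cortex cell.

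Slc2a5 and Tmem119 were higher on the ratio but found in a minority of the cells of both regions, and the other members named here were not called. The fructose transporter gene Slc2a5 (thalamus 109.6 TPM, visual cortex 65 TPM, log2 0.74) was found in 11 of 34 thalamic cells (17.4 to 50.5%) and 2 of 16 visual cortex cells (1.55 to 38.3%), with 99.7% of the visual cortex level in 1 cell. Tmem119, a surface protein of mature microglia, averaged 205.9 TPM in thalamus and 125.2 TPM in visual cortex (log2 0.71) but was in 11 of 34 thalamic cells (17.4 to 50.5%) and 5 of 16 visual cortex cells (11 to 58.7%). Its difference of mean log2 values was -0.05. The lectin gene Siglech (thalamus 973 TPM, visual cortex 719 TPM, log2 0.44), the secreted-protein gene Olfml3 (thalamus 379.8 TPM, visual cortex 308 TPM, log2 0.30), Csf1r, the receptor on which microglial survival depends (thalamus 748 TPM, visual cortex 671 TPM, log2 0.16), and the cystatin C gene Cst3 (thalamus 3578 TPM, visual cortex 4241 TPM, log2 -0.25) stayed within 1.5-fold. Csf1r and Cst3 were lower by the other measure, at -0.91 and -1.17.

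**Figure D2:**
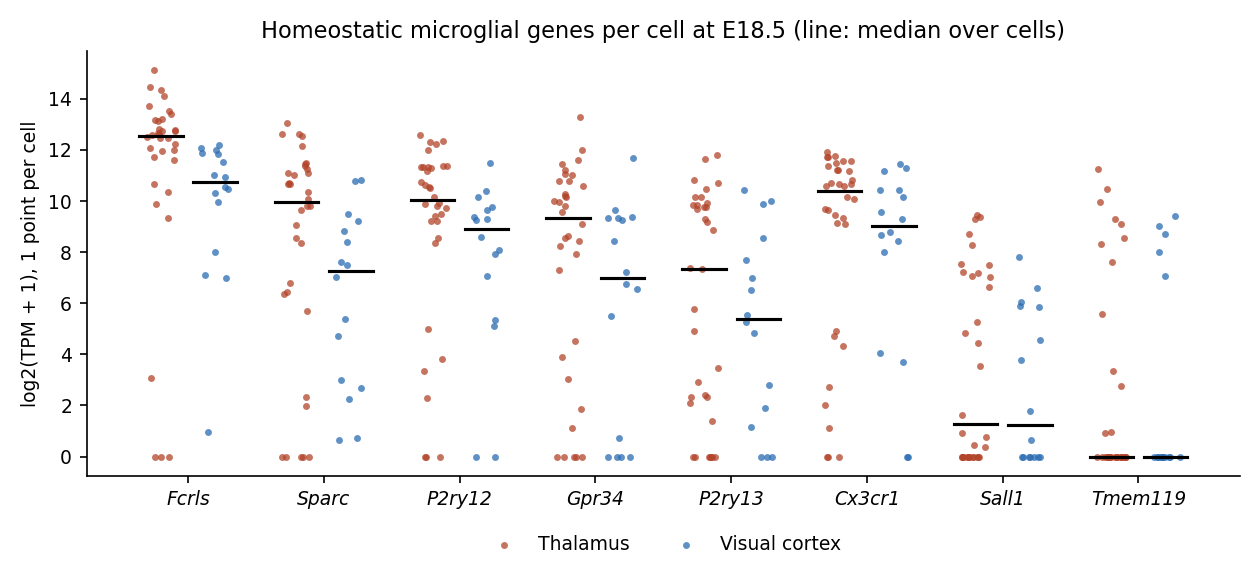
Levels of 8 homeostatic microglial genes as log2(TPM + 1), 1 point per cell, with the 34 thalamic cells (red) left of the 16 visual cortex cells (blue) for each gene and a black line at the median. Thalamic medians lie above those of visual cortex for Fcrls, Sparc, P2ry12, Gpr34, P2ry13 and Cx3cr1, while the medians of Sall1 lie near each other and those of Tmem119 are both 0.

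The homeostatic median stayed above 0 in every one of the 14 alternatives run, between 0.55 with all cells and 1.60 in the 9 thalamic and 10 visual cortex cells with a Y-linked transcript, where 10 members were higher and 1 lower. It was 0.96 without the cells at 20% or more mitochondrial and 0.61 without cells marked as border-associated macrophages. The part of preparation in the result was not tested.

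Receptor and signalling genes next to this programme stood higher on the ratio of means, less so by mean log2 values. Of 8 measured genes of purinergic and fractalkine signalling 6 were higher and 0 lower (median 0.79), a list that shares P2ry12, P2ry13 and Cx3cr1 with the homeostatic one. Entpd1, the CD39 enzyme that breaks down extracellular ATP, averaged 257.5 TPM in thalamus and 139.2 TPM in visual cortex (log2 0.88). Its cell medians were 10.4 TPM in thalamus and 12.9 TPM in visual cortex, and 1 thalamic cell held 36.2% of its level there. Of 12 genes of TREM2 and Fc receptor signalling 9 were higher and 1 lower (median 0.82). Itgb2, the integrin beta chain that pairs with CD11b, averaged 131.9 TPM in thalamus and 7.84 TPM in visual cortex (log2 3.91). It was found in 13 of 34 thalamic cells (22.2 to 56.4%) and 3 of 16 visual cortex cells (4.05 to 45.6%). The sialic acid-binding receptor gene Cd33 (thalamus 223.7 TPM, visual cortex 74.9 TPM, log2 1.57) was higher as well, with 73.2% of its visual cortex level in 1 cell. Inpp5d, which encodes the inositol phosphatase SHIP1 (thalamus 364 TPM, visual cortex 187.8 TPM, log2 0.95), was also higher. Trem2 itself, named after its values were seen, averaged 1158 TPM in thalamus and 615 TPM in visual cortex (log2 0.91), with cell medians of 512 TPM in thalamus and 506 TPM in visual cortex, and its adaptor gene Tyrobp, also named after its values were seen, averaged 6793 TPM in thalamus and 5832 TPM in visual cortex (log2 0.22). By mean log2 values the purinergic list had 3 higher and 1 lower (median 0.29) and the TREM2 list 5 higher and 4 lower (median 0.25).

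Other transcription factors of the macrophage lineage did not follow Sall1. Of 14 measured 4 were higher and 6 lower (median -0.32, and -1.09 by mean log2 values, with 3 higher and 9 lower). Mef2a, a factor of the microglial enhancer landscape, averaged 34.4 TPM in thalamus and 157.96 TPM in visual cortex (log2 -2.17), found in 19 thalamic and 13 visual cortex cells. Runx1, a factor of blood and macrophage lineages, averaged 59.3 TPM in thalamus and 131.7 TPM in visual cortex (log2 -1.14), and the interferon regulatory factor gene Irf5 17.5 TPM in thalamus and 73.5 TPM in visual cortex (log2 -2.01). Of 10 genes of TGF-beta signalling 6 were lower and 1 higher (median -0.68). By mean log2 values there were 0 higher and 4 lower. The median was 0.48 when the highest cell of each region was left out gene by gene. The higher member was the receptor gene Tgfbr2 (thalamus 77.1 TPM, visual cortex 29.5 TPM, log2 1.36), whose difference of mean log2 values was -0.23.

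Genes of tissue clearance went both ways on the ratio of means, and more of them were lower by mean log2 values. Of 8 measured complement genes 3 were higher and 3 lower, and by mean log2 values 2 higher and 4 lower. Of the C1q subunits, which tag synapses and debris, C1qa stood at 436 TPM in thalamus and 909 TPM in visual cortex (log2 -1.06), C1qc at 472 TPM in thalamus and 833 TPM in visual cortex (log2 -0.82) and C1qb, named after its values were seen, at 3786 TPM in thalamus and 5178 TPM in visual cortex (log2 -0.45). Relative to genes of like GC content their log2 ratios were -0.08, 0.14 and 0.50, none of them lower by 1.5-fold. Of 23 genes of lysosome and phagocytosis 4 were higher and 4 lower (median -0.07), against 3 higher and 13 lower by mean log2 values (median -0.60). Ctsa, the protective protein of lysosomal enzymes, averaged 1905 TPM in thalamus and 930.1 TPM in visual cortex (log2 1.03) and exceeded the highest visual cortex cell in 13 thalamic cells. Psap, the precursor of saposins (thalamus 45.3 TPM, visual cortex 164.04 TPM, log2 -1.83), and Gas6, a bridging ligand of phagocytic receptors (thalamus 111.7 TPM, visual cortex 305 TPM, log2 -1.44), were lower.

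Genes of the axon tract state were lower about as often as all measured genes. Of 12 measured 5 were lower and 1 higher (median -0.26), and by mean log2 values 2 higher and 6 lower. Without the highest cell of each region the median was 0.070. Spp1, which encodes osteopontin, averaged 170.4 TPM in thalamus and 1599 TPM in visual cortex (log2 -3.22), but it was found in 8 of 34 thalamic cells (10.7 to 41.2%) and 5 of 16 visual cortex cells (11 to 58.7%), and 1 visual cortex cell held 92.5% of its level there. The lipoprotein lipase gene Lpl averaged 213.97 TPM in thalamus and 326 TPM in visual cortex (log2 -0.60) with cell medians of 24.1 TPM in thalamus and 20.6 TPM in visual cortex, and its difference of mean log2 values was 0.28. Of 23 genes of disease-associated microglia, a list that shares Spp1, Lpl and others with it, 6 were higher and 5 lower, by mean log2 values 4 higher and 7 lower. Apoe, the lipid-carrying apolipoprotein E, averaged 2433 TPM in thalamus and 8116 TPM in visual cortex (log2 -1.74). It ranged from 0 to 10753 TPM over the thalamic cells, with a median of 1443 TPM, and from 0 to 29159 TPM over the visual cortex cells, with a median of 6649 TPM. All but a few cells of each region held it, 31 thalamic and 15 visual cortex cells, and 4 visual cortex cells exceeded every thalamic cell.

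Of 11 iron and haem genes 6 were lower and 3 higher (median -0.76). By mean log2 values 0 higher and 8 lower were counted. The ferritin heavy chain gene Fth1 averaged 1311 TPM in thalamus and 3092 TPM in visual cortex (log2 -1.24) and was at 100 TPM or more in 22 of 34 thalamic and 16 of 16 visual cortex cells. Ftl1, the ferritin light chain, named after its values were seen, averaged 11373 TPM in thalamus and 20380.1 TPM in visual cortex (log2 -0.84). Blvrb, a biliverdin reductase, averaged 17.8 TPM in thalamus and 447 TPM in visual cortex (log2 -4.57). It was found in 10 of 34 thalamic cells (15.1 to 47.5%) and 11 of 16 visual cortex cells (41.3 to 89%). Over the 14 alternatives the median ran from -1.60, without cells marked as border-associated macrophages, to -0.28, relative to genes of like GC content.

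Immediate early genes, which cells switch on within minutes of a stimulus or of tissue dissociation, counted 12 lower and 4 higher members of 17 (median -0.86, and -1.12 by mean log2 values, with 4 higher and 13 lower). Ier2 averaged 26.3 TPM in thalamus and 231.5 TPM in visual cortex (log2 -3.09). It ranged from 0 to 193.7 TPM over the thalamic cells, with a median of 0 TPM, and from 0 to 1904 TPM over the visual cortex cells, with a median of 106.6 TPM. It was found in 15 of 34 thalamic cells (27.2 to 62.1%) and 14 of 16 visual cortex cells (61.7 to 98.4%). Fosb averaged 36.9 TPM in thalamus and 114.03 TPM in visual cortex (log2 -1.60). It was found in 17 of 34 thalamic cells (32.4 to 67.6%) and 13 of 16 visual cortex cells (54.4 to 96%). Of the other AP-1 and ATF genes, Atf3 averaged 282 TPM in thalamus and 705 TPM in visual cortex (log2 -1.32) and Junb 65.5 TPM in thalamus and 139.7 TPM in visual cortex (log2 -1.08). Fos (thalamus 1318 TPM, visual cortex 2399.5 TPM, log2 -0.86) and Jun (thalamus 204.8 TPM, visual cortex 399 TPM, log2 -0.96), named after their values were seen, also lay lower. Egr1, also named after its values were seen, went the other way, at 2749 TPM in thalamus and 1357 TPM in visual cortex (log2 1.02), although its cell medians were 964 TPM in thalamus and 1146 TPM in visual cortex. The sources used here give no dissociation time, and its part was not tested.

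The cytokine and NF-kB list had 4 of 17 higher and 6 lower (median -0.29). Mean log2 values gave 3 higher and 8 lower. Tnf, tumour necrosis factor, averaged 86.2 TPM in thalamus and 0.845 TPM in visual cortex (log2 5.56). It was found in 8 of 34 thalamic cells (10.7 to 41.2%) and 4 of 16 visual cortex cells (7.27 to 52.4%). A single thalamic cell held 59.6% of its thalamic level, and without the highest cell of each region its log2 ratio was 4.62. Ccl2, a monocyte-attracting chemokine, averaged 839 TPM in thalamus and 3522 TPM in visual cortex (log2 -2.07), with 1 visual cortex cell at 47042 TPM. The activation marker gene Cd83 averaged 112.7 TPM in thalamus and 348 TPM in visual cortex (log2 -1.62). Interferon response genes had 7 of 13 higher and 3 lower (median 1.18, and 0.32 by mean log2 values, with 0 higher and 4 lower), resting on few cells: Ifi27l2a (thalamus 164.1 TPM, visual cortex 47.5 TPM, log2 1.77) was in 7 thalamic and 3 visual cortex cells and Ifitm3 (thalamus 159.7 TPM, visual cortex 70.2 TPM, log2 1.18), a viral entry restriction factor, also in 7 thalamic and 3 visual cortex cells. In cells with a Y-linked transcript the median was -1.29. MHC class I genes had 2 of 9 higher and 1 lower, by mean log2 values 2 higher and 4 lower, with the chaperone gene Calr at 321 TPM in thalamus and 182.5 TPM in visual cortex (log2 0.81) and H2-D1 at 547 TPM in thalamus and 804 TPM in visual cortex (log2 -0.56). Cd74, the invariant chain of MHC class II, was in 2 thalamic and 3 visual cortex cells.

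Lists of energy metabolism did not move together. All 13 mitochondrially encoded genes were higher in thalamus (median 1.27), genes that also make up the mitochondrial share of TPM given above. mt-Co2, a subunit of cytochrome c oxidase, averaged 14673 TPM in thalamus and 5247 TPM in visual cortex (log2 1.48), with 14 thalamic cells above every visual cortex cell, and mt-Co3 averaged 4004 TPM in thalamus and 789 TPM in visual cortex (log2 2.34). The median was 0.53 without the 5 cells at 20% or more mitochondrial, 0.58 with at least 2000 genes per cell and 0.11 in cells with a Y-linked transcript. Nuclear genes of oxidative phosphorylation had 3 of 19 higher and 5 lower (median -0.17), but 15 lower as differences of mean log2 values (median -1.47). The cytochrome c oxidase subunit genes Cox8a (thalamus 77.6 TPM, visual cortex 498 TPM, log2 -2.67) and Cox5a (thalamus 24.4 TPM, visual cortex 347 TPM, log2 -3.77) were lower and the complex I gene Ndufb9 (thalamus 320.5 TPM, visual cortex 87.5 TPM, log2 1.86) higher. Cox5a was found in 5 thalamic and 11 visual cortex cells, and 1 thalamic cell held 73.8% of its level there. In glycolysis 8 of 11 genes were lower and none higher (median -0.81), by mean log2 values 0 higher and 10 lower. Of these, the pyruvate kinase gene Pkm averaged 200.7 TPM in thalamus and 709 TPM in visual cortex (log2 -1.81), Pgam1, phosphoglycerate mutase, 74.8 TPM in thalamus and 180.3 TPM in visual cortex (log2 -1.26), Ldha, lactate dehydrogenase, 323 TPM in thalamus and 734 TPM in visual cortex (log2 -1.18), and Pgk1, phosphoglycerate kinase, 144.4 TPM in thalamus and 301 TPM in visual cortex (log2 -1.05).

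**Figure D3:**
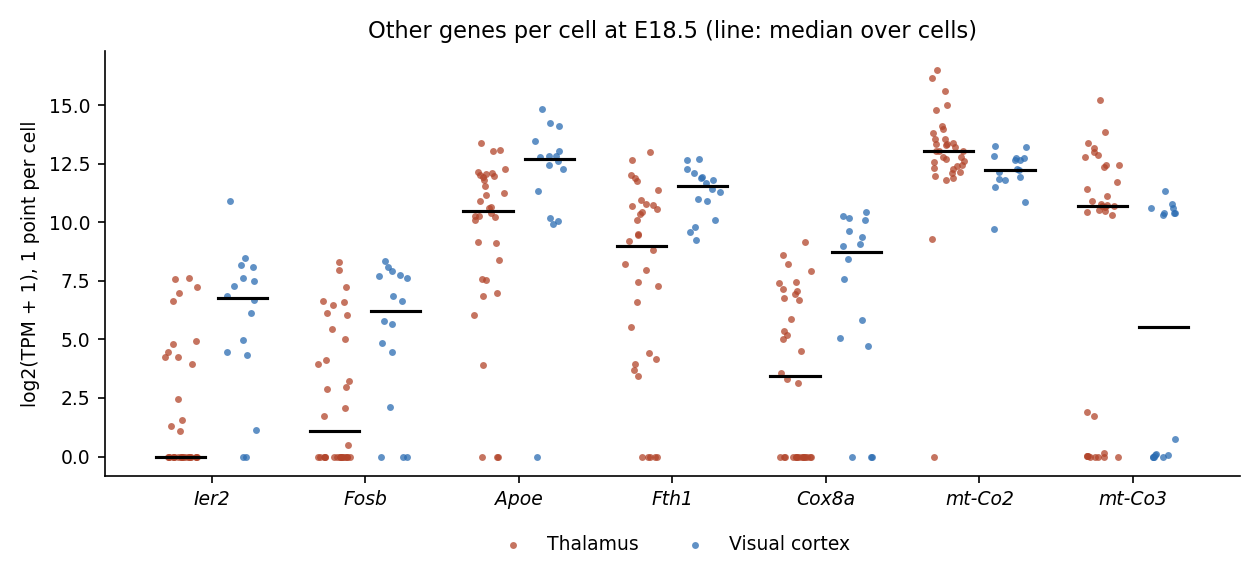
Levels of 5 genes that averaged lower in thalamus and of 2 mitochondrially encoded genes as log2(TPM + 1), 1 point per cell, with thalamic cells (red) left of visual cortex cells (blue) and a black line at the median. Thalamic medians are below those of visual cortex for Ier2, Fosb, Apoe, Fth1 and Cox8a and above them for mt-Co2 and mt-Co3, and the cells of the regions overlap for each gene.

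Cytoskeletal and ribosomal protein genes were lower mainly by mean log2 values, and histone genes by both measures. Of 19 cytoskeleton and motility genes 5 were higher and 8 lower (median -0.32, and -1.26 by mean log2 values, with 2 higher and 11 lower). Among members at 50 TPM or more, Arpc2 of the Arp2/3 complex had the lowest ratio (thalamus 212.2 TPM, visual cortex 674 TPM, log2 -1.66). Next came the cofilin gene Cfl1 (thalamus 457 TPM, visual cortex 1094 TPM, log2 -1.26) and the profilin gene Pfn1 (thalamus 352 TPM, visual cortex 836 TPM, log2 -1.25). Lcp1, the actin bundler plastin of leukocytes (thalamus 791 TPM, visual cortex 341 TPM, log2 1.21), was higher, and so was Arpc3 of the Arp2/3 complex. Of 15 histone and chromatin genes 10 were lower and none higher (median -1.03), against 0 higher and 9 lower by mean log2 values (median -1.28), with the linker histone gene Hist1h1c (thalamus 7.96 TPM, visual cortex 129.7 TPM, log2 -3.87), the variant gene H2afz (thalamus 978 TPM, visual cortex 1726 TPM, log2 -0.82) and Hmgn2 (thalamus 503 TPM, visual cortex 956 TPM, log2 -0.93) among them. Hist1h1c was found in 4 thalamic and 9 visual cortex cells, and 1 thalamic cell held 97.9% of its level there. Ribosomal protein genes had 3 of 79 higher and 15 lower (median -0.16), but 66 lower by the difference of mean log2 values (median -1.17). Rpl13 averaged 289 TPM in thalamus and 1355 TPM in visual cortex (log2 -2.23). Ribosomal protein genes as a whole took a median of 7.33% of TPM in thalamic and 7.49% in visual cortex cells.

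Proliferation genes went both ways on the ratio of means, and by mean log2 values their medians lay near that of all measured genes. DNA replication genes had 6 of 14 higher and 7 lower, and mitotic genes 5 of 20 higher and 8 lower (median -0.32). By mean log2 values replication genes had 1 higher and 5 lower (median -0.21) and mitotic genes 0 higher and 8 lower (median -0.33). Over all measured genes that median was -0.33. Mki67 was at 1 TPM or more in 8 of 34 thalamic cells (10.7 to 41.2%) and 6 of 16 visual cortex cells (15.2 to 64.6%) and Top2a in 11 of 34 thalamic cells (17.4 to 50.5%) and 4 of 16 visual cortex cells (7.27 to 52.4%). The thymidylate synthase gene Tyms averaged 130.2 TPM in thalamus and 61 TPM in visual cortex (log2 1.08) and the mitotic cyclin gene Ccnb1 124.1 TPM in thalamus and 234.1 TPM in visual cortex (log2 -0.91), which was in 6 thalamic and 2 visual cortex cells. Heat shock genes had 2 of 11 higher and 4 lower, by mean log2 values 0 higher and 3 lower. The higher ones were Hspa8 (thalamus 2383 TPM, visual cortex 1468 TPM, log2 0.70) and Hspd1 (thalamus 187.8 TPM, visual cortex 74.1 TPM, log2 1.33). The lower ones were Hspa1a, Hspa1b, Hsph1 and Dnajb1. Factors that act on axons and synapses had 0 of 9 higher and 4 lower, by mean log2 values 3 higher and 5 lower, among them on the ratio the semaphorin co-receptor gene Nrp1 (thalamus 61.6 TPM, visual cortex 159.4 TPM, log2 -1.36), while Igf1 (thalamus 185.4 TPM, visual cortex 213.96 TPM, log2 -0.21) and Sirpa, the receptor of the don't-eat-me signal CD47 (thalamus 585 TPM, visual cortex 538 TPM, log2 0.12), stayed within 1.5-fold.

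Of 11 border-associated macrophage markers 6 were lower and 3 higher (median -0.61). Mean log2 values gave 0 higher and 7 lower. Pf4, a platelet-type chemokine, averaged 1539.6 TPM in thalamus and 3662 TPM in visual cortex (log2 -1.25), the hyaluronan receptor gene Lyve1 176.1 TPM in thalamus and 429 TPM in visual cortex (log2 -1.28), and Ms4a7 had a log2 ratio of -1.70. Their medians over cells were 0 in both regions. Cells with at least 2 of the 5 markers F13a1, Lyve1, Ms4a7, Folr2 and Cbr2 at 100 TPM or more numbered 4 of 34 thalamic cells (3.3 to 27.5%) and 3 of 16 visual cortex cells (4.05 to 45.6%). The mannose receptor gene Mrc1 was wider spread, in 23 of 34 thalamic cells (49.5 to 82.6%) and 12 of 16 visual cortex cells (47.6 to 92.7%), and averaged 533 TPM in thalamus and 739 TPM in visual cortex (log2 -0.47). The list median was 0.31 with at least 2000 genes per cell and -3.99 in cells with a Y-linked transcript, so its sign changed with the cells used. Without marked cells of both regions the homeostatic median was 0.61, the immediate early one -1.14 and the glycolysis one -0.89.

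**Figure D4:**
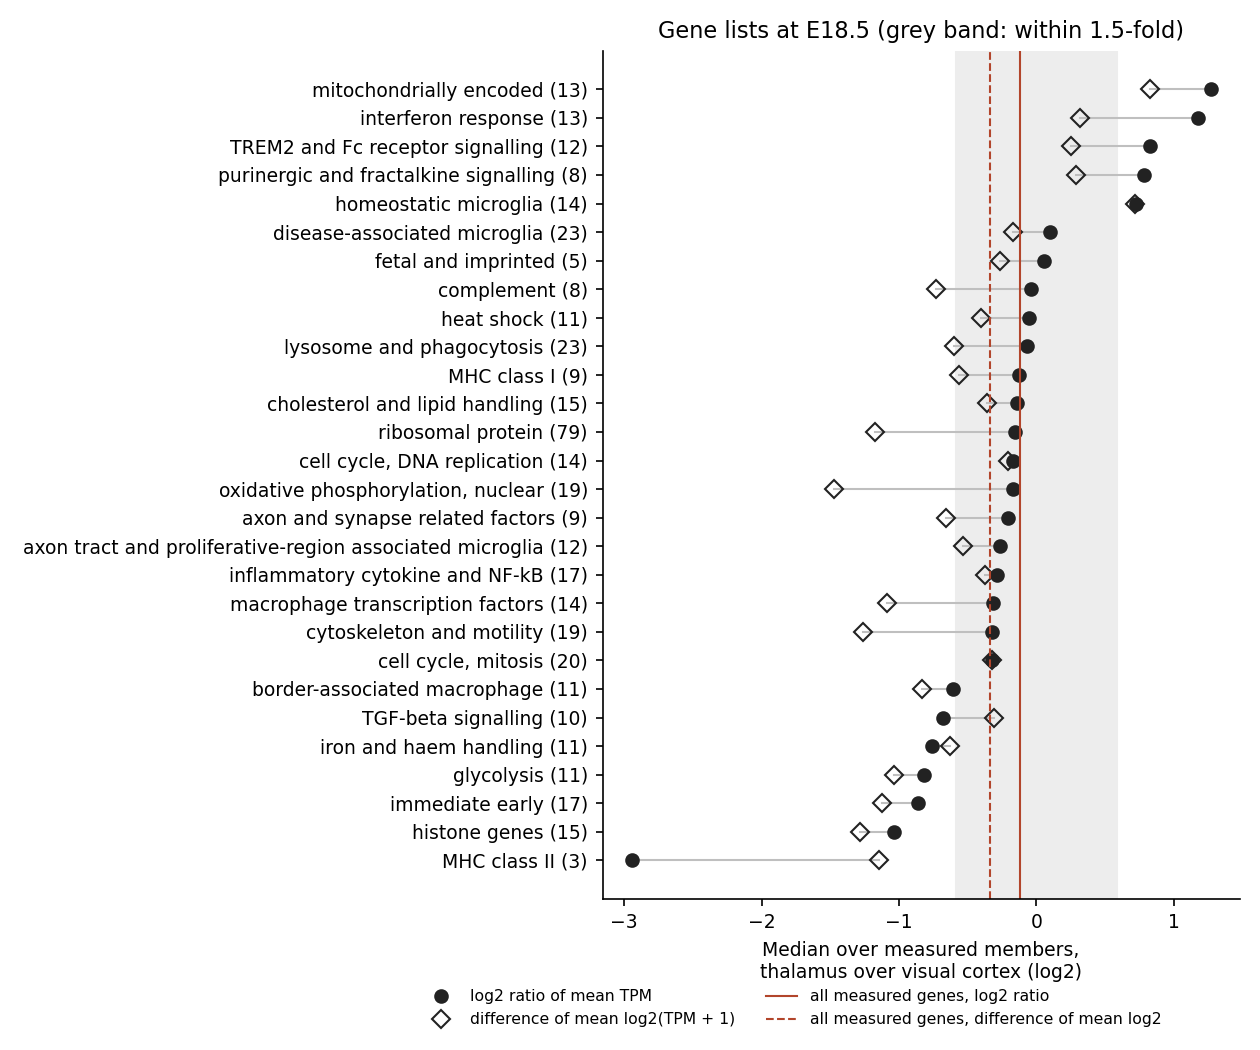
Medians over the measured members of 28 gene lists (number of members in brackets), thalamus over visual cortex on a log2 scale; filled circles are log2 ratios of mean TPM, open diamonds differences of mean log2(TPM + 1), and red lines the medians of all measured genes, -0.12 and -0.33. The homeostatic list has both values near 0.73, while the nuclear oxidative phosphorylation and ribosomal protein lists have diamonds near -1.47 and -1.17 beside circles near -0.17.

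The largest ratios among single genes came from few cells. The 15 genes leading upward had log2 ratios of 4.58 to 6.55 and were found in 9 to 25 thalamic cells, and the 15 leading downward had -6.08 to -7.57 and were found in 4 to 8 visual cortex cells. In 3 of the upward and 9 of the downward genes a single cell held 50% or more of the level. Orc3, a subunit of the origin recognition complex, averaged 114.4 TPM in thalamus and 3.76 TPM in visual cortex (log2 4.60) and was in 25 thalamic and 4 visual cortex cells. Ppp2r2b, a regulatory subunit of protein phosphatase 2A, averaged 92.4 TPM in thalamus, where it was found in 12 of 34 cells, and was listed at 0 in visual cortex. Anxa2, annexin A2, averaged 1.83 TPM in thalamus and 473 TPM in visual cortex (log2 -7.39). It was found in 5 of 34 thalamic cells (4.95 to 31.1%) and 8 of 16 visual cortex cells (24.7 to 75.3%), and Anxa1, annexin A1, was listed at 0 in thalamus, with 172.98 TPM in visual cortex found in 4 cells, of which 1 held 98.2% of its level.

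A cleaner split was seen in genes of which at least 50% of the cells of 1 region lay above every cell of the other, a view chosen after the values were seen. In 4 of the 9127 measured genes this held for visual cortex. Pim1, a serine/threonine kinase induced by cytokines, averaged 5.6 TPM in thalamus and 116.01 TPM in visual cortex (log2 -4.15), and 12 of 16 visual cortex cells exceeded the highest thalamic cell at 29.6 TPM. The zinc transporter gene Slc39a1 averaged 24.8 TPM in thalamus and 258.3 TPM in visual cortex (log2 -3.33) and likewise had 12 of 16 visual cortex cells above the thalamic maximum of 130.8 TPM. Sod1, the cytosolic superoxide dismutase, averaged 376 TPM in thalamus and 2433 TPM in visual cortex (log2 -2.69) and Mcmbp, a binding protein of the MCM helicase, 12.8 TPM in thalamus and 91.4 TPM in visual cortex (log2 -2.75), each with 8 of 16 visual cortex cells above all 34 thalamic cells.

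In the other direction 28 genes met the condition, Fcrls among them. Thalamic cells had to exceed the highest of 16 cells here, and visual cortex cells the highest of 34. The condition was thus not equally strict, and the counts of 28 and 4 cannot be compared directly. Of the 28, 9 were nuclear protein-coding genes, such as Ift80, an intraflagellar transport gene (thalamus 30.6 TPM, visual cortex 2.52 TPM, log2 3.17, 26 of 34 thalamic cells above the visual cortex maximum of 7.7 TPM), and Pcdh15, a protocadherin gene of hair cells (thalamus 168.8 TPM, visual cortex 10.6 TPM, log2 3.87, 18 of 34). Another 4 were long noncoding genes, 4 pseudogenes and 11 had names without a single entry in GENCODE M21. Over all measured genes of these classes, 53.3% of the 407 long noncoding genes and 53.6% of the 360 pseudogenes were higher in thalamus, against 35.8% of the 7715 nuclear protein-coding genes, with medians of 0.87, 0.99 and -0.21. Nuclear protein-coding genes took a median of 75.9% of TPM in thalamic and 82.1% in visual cortex cells. What sets this share, and its part in the other results, was not tested.

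Ratios also moved with base composition. In 5 equal bins of transcript GC content, from low to high, the median log2 ratio at E18.5 was 0.13, -0.04, 0.00, -0.27 and -0.63, for the 94% of measured genes with a GC value. Subtracting the median of 20 GC bins left the homeostatic median at 1.07 and the immediate early median at -0.69, and took Ftl1 to 0.11. The iron and haem median became -0.28 and the cytoskeleton median -0.07. Of genes called lower above, Junb came to -0.10 and Pfn1 to -0.27, within 1.5-fold, while Ier2 stayed at -2.11 and Fosb at -1.31.

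The same regions were then compared in other cells of P7, P14 and adult mice, read from 1 end at P14 and in adults. There were 42 thalamic and 28 visual cortex cells at P7 and 98 thalamic and 93 visual cortex cells in adults, and more at P14. Background shares differed by age: at P7 46.6% of measured genes were higher and 33.2% lower in thalamus, at P14 30% and 24.7%, and among adults 36.3% and 30.8%. The homeostatic median of 0.73 at E18.5 was followed by -0.11 (P7), -0.03 (P14) and -0.12 (adult). Of the 14 genes 4 were higher and 1 lower at P7, none was higher or lower at P14, and 0 were higher and 4 lower in the adult. Fcrls had log2 ratios of -0.94, -0.12 and -1.19 at these ages and P2ry12 -0.40, -0.13 and -0.68, each opposite in sign to its ratio at E18.5.

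Of the lists with a median ratio below 0 at E18.5, the immediate early, iron, TGF-beta, cytokine and several other lists had medians above 0 at each later age. The glycolysis list did so at P14 alone. All measured genes had medians of 0.38 (P7), 0.09 (P14) and 0.08 (adult). By mean log2 values the TGF-beta and cytokine medians at E18.5, -0.31 and -0.37, lay near the -0.33 of all measured genes. The immediate early median of -0.86 was followed by 2.06, 0.29 and 0.18, with 13 of 16 genes higher at P7. Iron and haem genes had 0.68, 0.19 and 0.24 and glycolysis genes -0.05, 0.28 and -0.26. TGF-beta genes had 0.95, 0.03 and 0.56 and cytokine genes 1.198, 0.37 and 0.26. Apoe, lower in thalamus at E18.5, had log2 ratios of 2.23, 1.29 and 3.20, higher in thalamus at each later age. TREM2 and Fc receptor genes had medians of -0.60, 0.06 and -0.17, and mitochondrially encoded genes 0.65, 0.20 and 0.12. Pim1 (0.69, -0.39 and 1.93) and Sod1 (0.85, -0.86 and 0.45) went both ways. The change of these differences with age was not tested, as each age and region is 1 sample.

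**Figure D5:**
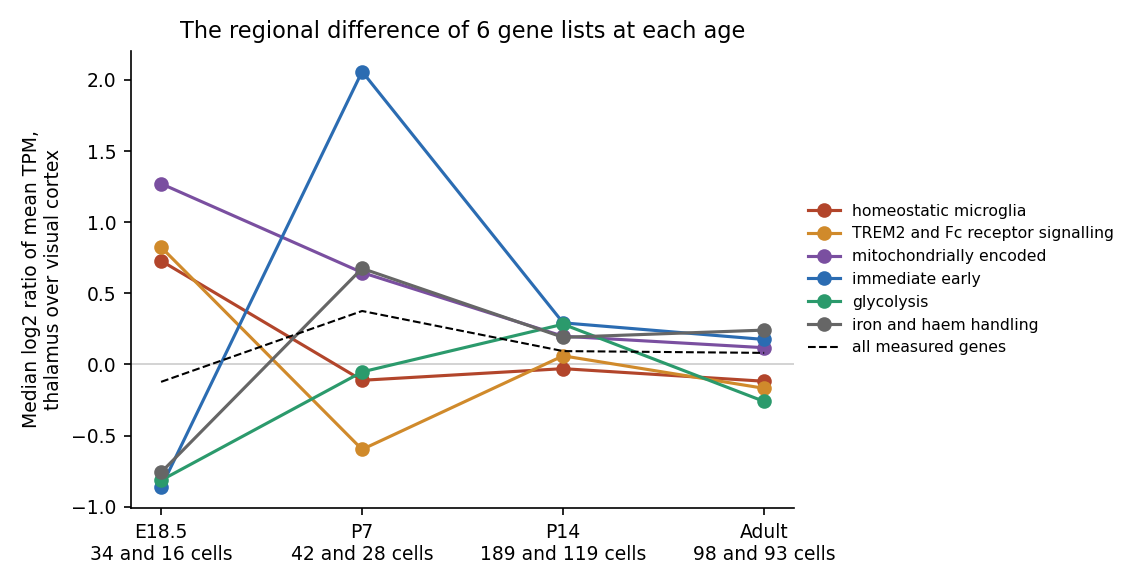
Median log2 ratio of mean TPM, thalamus over visual cortex, for 6 gene lists at E18.5, P7, P14 and adult, with the numbers of thalamic and visual cortex cells under each age and the median of all measured genes as a dashed line. The homeostatic median lies at 0.73 at E18.5 and between -0.12 and -0.03 at the later ages, and the immediate early median runs from -0.86 at E18.5 through 2.06 at P7 to 0.18 in the adult.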

How the data were processed

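The data were single-cell RNA-seq values of macrophages sorted from mouse brain, 1 cell per sample. The authors deposited 1 table of TPM values over 43280 gene names, which sum to 998657 or more in each thalamic and 999244 or more in each visual cortex cell. RSEM 1.2.19, Seurat and GRCm38 come from the submitters' processing notes, and no aligner, annotation or filter is given in the sources used here. TPM keeps no record of depth, and the libraries carry no molecular identifiers. The precision of a difference between regions cannot be given, since no embryo is named and each region is 1 sample.

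Cells were grouped by source name and kept with 1000 or more genes at 1 TPM. Log2 of the ratio of mean TPM used a pseudocount of 1 TPM, and a gene was measured at a mean of 5 TPM in either region. Of the gene names 39379 matched exactly 1 GENCODE M21 gene, from which coordinates, classes and GC content were taken; promoters are RefSeq's in GRCm38.p6. Shares have exact Clopper-Pearson 95% intervals, and a share of 0 allows 3 counts. Border-associated macrophages were not removed, and no doublet caller was run, since the values are not counts. No statistical test was run, because no embryo is named and cells are not replicates.

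Named genes were the 15 largest ratios in each direction among genes with a mean of 50 TPM and 1 TPM in 25% of cells of the higher group and 1.5-fold or more by both measures, without mitochondrially encoded, ribosomal protein, predicted and sex-linked genes and pseudogenes, and up to 4 members per list at 50 TPM or more with the largest absolute ratio. All homeostatic, border-associated macrophage and sex-linked members could be named. The values of 1 homeostatic member are not reported here. The members and the 43 lists were chosen with earlier results of these data known. The alternatives comprised 11 planned settings of the ratios, levels of 10 and 100 TPM for shares of cells, and 3 settings chosen after seeing the data: without cells at 20% or more mitochondrial, only cells with Ddx3y or Eif2s3y, and ratios centred on 20 GC bins. The ratio was tested on simulated data. Tables were handled in pandas 2.3.3 and numpy 2.4.6, intervals came from scipy 1.17.1 and plots from matplotlib 3.10.9, under Python 3.11.15.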

Additional observations from a re-analysis of the deposited data

How the results depend on the processing

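No paired analysis was possible because the labels carry no replicate numbers and each region is 1 sample. The count of measured genes higher in thalamus, 3477 of 9127, was 1018 by the difference of mean log2 values and 1052 of 3576 with a mean of 50 TPM required; the count of lower genes, 3756, was 1527 of 3576 with that requirement and 2066 of 5880 without the highest cell of each region gene by gene. In cells with a Y-linked transcript 33.9% of measured genes were higher and 50.1% lower. Median-ratio rescaling moved the median of all genes from -0.12 to 0.10 and gave 3803 higher and 3431 lower. The sign of some differences turned. By the difference of mean log2 values Tmem119 was -0.046, Lpl 0.28 and Tgfbr2 -0.23. Without the highest cell the TGF-beta median was 0.48 and Lpl 0.070. With all cells Sparc was -3.40 and Stab1 1.40 (a thalamic cell under the minimum held 145186 TPM of Stab1), and with at least 2000 genes the border-associated macrophage median was 0.31, F13a1 0.31 and Pf4 1.03. In cells with a Y-linked transcript the interferon median was -1.29, Tmem119 -1.06, Ccl2 0.12, Ldha 0.12 and Ifitm3 -3.63; without cells marked as border-associated macrophages F13a1 was 0.37 and Lyve1 1.03; after centring on GC bins C1qc was 0.14 and Ftl1 0.11. Beyond what the alternatives are built on, the cause was not tested. The homeostatic, TREM2, purinergic, immediate early, glycolysis, histone, iron and mitochondrially encoded medians kept their sign in all 14 alternatives. Depth per cell is unknown and limits every share of cells with a gene.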

Other observations

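Hippocampal macrophages of the same age were not compared, since 1 of 21 cells reached 1000 genes and the median was 372 genes per cell. The 20 hippocampal cells under the minimum had a median mitochondrially encoded share of 48.7% of TPM, against 57.1% in the 16 thalamic and 4.16% in the 6 visual cortex cells under it. Among genes at 1 TPM or more in at least 50% of the cells of both regions, chosen after their values were seen, Ptgs1, the constitutive cyclooxygenase expressed by microglia, averaged 469.8 TPM in thalamus and 117.3 TPM in visual cortex (log2 1.99), and Stip1, a co-chaperone of Hsp70 and Hsp90, 97.8 TPM in thalamus and 8.56 TPM in visual cortex (log2 3.37). Cd34, a sialomucin of blood progenitors and endothelium, averaged 36 TPM in thalamus and 3.52 TPM in visual cortex (log2 3.04) and was at 1 TPM or more in 30 thalamic and 11 visual cortex cells, while its visual cortex maximum was 7.59 TPM. No kept cell had Xist together with Ddx3y or Eif2s3y at 1 TPM or more, and 9 of 34 thalamic and 4 of 16 visual cortex cells had none of these.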
